A study of Rattus norvegicus with 12 samples.

Results

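Transcripts of 10 genes that encode BMP, GDF and activin ligands and the proteins that bind them were followed in neonatal rat ventricular myocytes (NRVMs). The genes were the BMP ligands Bmp2, Bmp4 and Bmp10, the further ligands Gdf15, Inhba and Mstn, and the binding proteins Fst, Fstl1, Fstl3 and Grem1. They were picked by symbol from the 18483 genes of the count and FPKM tables, and all 10 were found. The cells came from the ventricles of Sprague-Dawley rats within 3 days of birth and had been separated from other heart cells on Percoll. They were transfected with a control siRNA (siNeg) or with 1 siRNA against Slc39a2 (siSlc39a2), a gene that encodes a zinc importer. They were then left untreated or given phenylephrine (PE), an alpha-adrenergic agonist that induces hypertrophy of cultured cardiomyocytes. The labels give 36 h of PE, begun 12 h after transfection, whereas the culture methods give a longer treatment. Each of the resulting 4 groups (siNeg and siNeg PE, siSlc39a2 and siSlc39a2 PE) had 3 independent replicates, and the response to the knockdown is therefore known for 1 siRNA sequence only.

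BMPs, GDFs and activins are secreted dimers of the TGF-beta superfamily. They join type I and type II serine/threonine kinase receptors on the cell surface. BMPs then act mainly through SMAD1, SMAD5 and SMAD9, and activins and myostatin mainly through SMAD2 and SMAD3. Follistatin (Fst) and follistatin-like 3 (Fstl3) bind activins and myostatin outside the cell and block receptor binding. Gremlin 1 (Grem1) binds BMP2 and BMP4 in the same manner. In the heart, Bmp2, Bmp4 and Bmp10 are known for their roles in valve and chamber development, and Gdf15 is known as a cytokine that is induced by cell stress and signals through its own receptor in the hindbrain.

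Total counts per sample were between 24065539 and 28603854. Slc39a2 itself had between 50 and 59 counts in siNeg, 2 and 21 for siSlc39a2, 95 and 198 for siNeg PE and 25 and 38 for siSlc39a2 PE. The knockdown was -2.35 (standard error 0.46, adjusted p = 9.80e-04) without PE and -2.33 (standard error 0.38, adjusted p = 2.24e-04) with PE on the log2 scale. The first of these was -3.12 without siSlc39a2 replicate 1 and -1.85 without siSlc39a2 replicate 3, and on log2(FPKM + 1), a scale that understates changes of low genes, the 2 values were -1.16 and -1.55. Of the cell type markers, all 10 cardiomyocyte genes were tested and summed to between 56602 and 59147 CPM (counts scaled to library size by TMM) for siNeg, 46315 and 47429 for siSlc39a2, and 60527 and 66547 in the PE groups. Macrophage markers summed to between 91.3 and 126 CPM for siNeg and between 35.9 and 59.9 CPM in the other groups, and endothelial markers to between 17.3 and 27.4 CPM. The 12 fibroblast markers summed to 17149 ± 2480 CPM (SD, n = 3) for siNeg, 11074 ± 1343 for siNeg PE, 5699 ± 162 for siSlc39a2 and 4279 ± 817 for siSlc39a2 PE. In bulk RNA, fewer cells of a type and less RNA per cell cannot be told apart. A change was tested with the quasi-likelihood test of edgeR on 13967 genes, with Benjamini-Hochberg adjustment over all of them. A gene passed the test at an adjusted p below 0.05, and was past the threshold when its log2 fold change also exceeded 1 in size.

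Levels of the 10 genes were compared with each other in FPKM, which is scaled to transcript length. Fstl1, a secreted glycoprotein of the follistatin family, was the highest in each group, with a mean between 108 and 143 FPKM. Gdf15 followed with means between 23.7 and 41.8 FPKM. In siNeg cells the order was then Fstl3 (6.77 ± 0.506 FPKM, SD, n = 3), Bmp4 (4.73 ± 0.536), Bmp2 (1.26 ± 0.169), Inhba (0.720 ± 0.191), Fst (0.453 ± 0.0473) and Grem1 (0.0967 ± 0.0416). The ranges of neighbours in this order did not overlap in siNeg cells down to Grem1. In siSlc39a2 cells, Fstl3 (6.39 to 6.64 FPKM), Bmp4 (4.81 to 6.57 FPKM) and Bmp2 (4.40 to 5.73 FPKM) overlapped as neighbours, as did Inhba (1.17 to 1.47 FPKM) and Fst (1.00 to 1.26 FPKM). The order of Bmp2 and Bmp4 was turned in siSlc39a2 PE cells, where Bmp2 lay between 5.21 and 5.59 FPKM and Bmp4 between 3.10 and 4.46 FPKM.

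**Figure D1:**
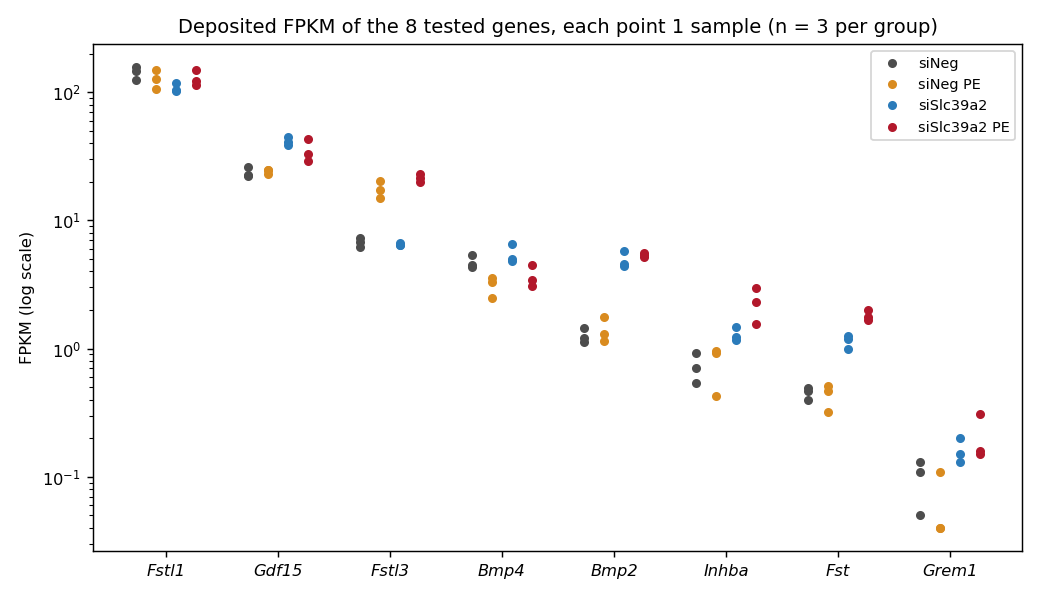
Deposited FPKM values of the 8 tested genes on a log axis, each point 1 sample, coloured by group with n = 3 per group. Fstl1 lies above 100 FPKM in all 12 samples and Grem1 at or below 0.31 FPKM, while Bmp2, Inhba and Fst are higher in the siSlc39a2 groups.

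Bmp10, a BMP of the heart's trabecular myocardium, and Mstn, which encodes the muscle growth inhibitor myostatin, were at the limit of detection. Bmp10 had 2 counts in 1 siNeg sample, 1 count in 1 siSlc39a2 sample, 1 count in 1 siSlc39a2 PE sample and none in the others. Mstn had none in the siNeg samples and at most 2 counts in any other sample. Neither exceeded 3 counts in a sample, which corresponded to between 0.102 and 0.118 CPM, and a difference between groups was not detectable at this depth. Neither was tested, so that 8 of the 10 genes entered the tests below.

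With the knockdown of Slc39a2, most of the 8 tested genes passed the test. Without PE, 2 of the 8 tested genes were past the threshold, Bmp2 and Fst, both higher, against 4.57% of all genes tested past it in the higher and 5.21% in the lower direction. By adjusted p alone, 4 genes were higher (Bmp2, Gdf15, Inhba and Fst) and 1 was lower (Fstl1), against 22.8% and 26.4% of all genes. With PE, 4 of 8 were past the threshold, Bmp2, Inhba, Fst and Grem1, all higher, against 6.03% of all genes in the higher and 5.58% in the lower direction. By adjusted p alone, 6 genes were higher (with Gdf15 and Fstl3 added) and 0 lower, against 29.2% and 28.1%. With PE, the unadjusted p was under 0.05 for 0 lower genes as well, and DESeq2 called the same 6 genes. The median log2 fold change of the 8 genes was 0.64 without PE and 1.06 with PE, beside medians of all genes of -0.02 and 0.01. The share of the 8 genes past the threshold was above that of all genes in either condition, and the share called by adjusted p in either direction lay closer to it.

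Responses to PE were counted in the same way. In siNeg cells, 1 gene was past the threshold (Fstl3, higher), against 3.80% of all genes higher and 2.80% lower. By adjusted p alone 1 gene was higher (Fstl3) and 1 was lower (Bmp4), against 24.0% and 25.7%. In siSlc39a2 cells, Fstl3 was again the 1 gene past the threshold, against 6.34% of all genes higher and 4.17% lower. By adjusted p alone 4 genes were higher (Inhba, Fst, Fstl1 and Fstl3) and 1 was lower (Bmp4), against 30.7% and 29.3%. The shares of these 8 genes called by adjusted p were in siNeg cells below, and in siSlc39a2 cells near, those of all genes taken in both directions. The 4 comparisons share groups in pairs, and their values are therefore given side by side.

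**Figure D2:**
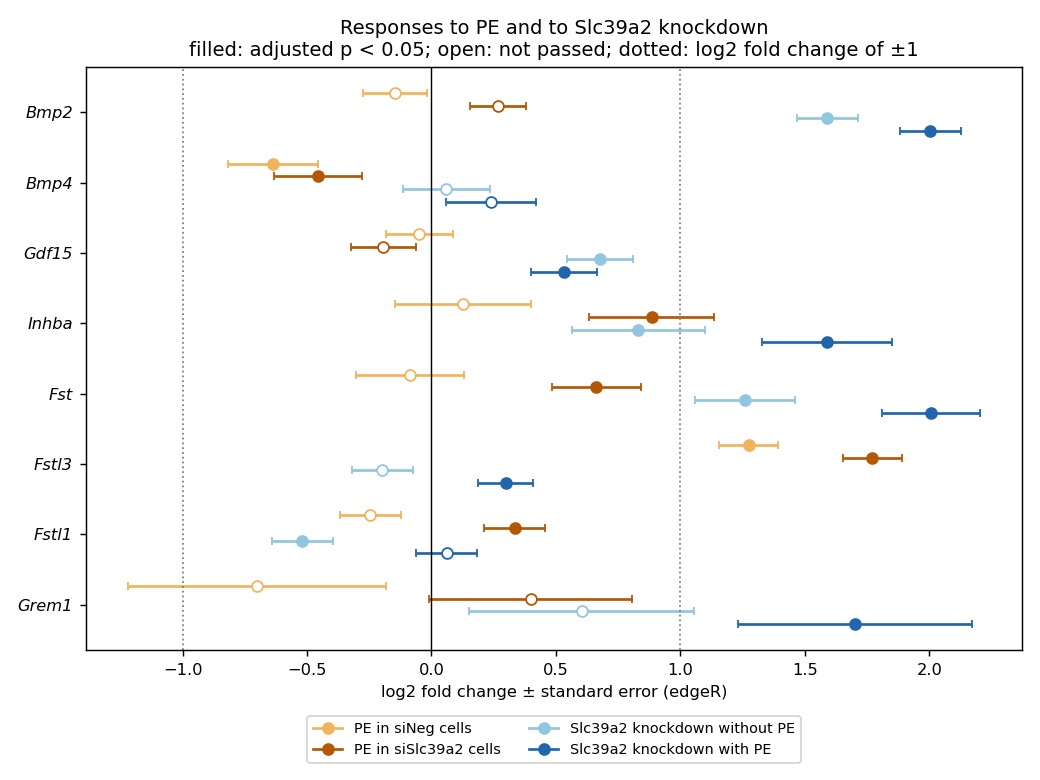
Log2 fold changes of the 8 tested genes (edgeR, error bars are standard errors) in response to PE and to Slc39a2 knockdown; filled points have an adjusted p below 0.05 and dotted lines mark a log2 fold change of 1 in either direction. Bmp2 and Fst lie beyond the line in both knockdown comparisons and Fstl3 in both PE comparisons.

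Among the BMP ligands, Bmp2, an inducer of osteogenic and cardiogenic differentiation, rose with the knockdown, and neither PE comparison passed the test. Its CPM were 3.63, 3.68 and 3.90 for siNeg and 3.21, 3.90 and 3.01 for siNeg PE. They were 12.4, 10.2 and 11.1 for siSlc39a2 and 12.6, 14.2 and 13.8 for siSlc39a2 PE. Each siSlc39a2 sample, with or without PE, was above each siNeg sample. Bmp2 was 3.01-fold higher without PE (log2 fold change 1.59, standard error 0.12, adjusted p = 3.40e-07) and 4.01-fold higher with PE (2.0, standard error 0.12, adjusted p = 3.86e-08). The response to PE was -0.15 (standard error 0.13, adjusted p = 0.365) in siNeg cells and 0.27 (standard error 0.11, adjusted p = 0.0555) in siSlc39a2 cells, where the samples of the groups did not overlap. Without siSlc39a2 replicate 1, the second of these was 0.35 and passed the test (adjusted p = 0.0383).

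Bmp4, which shares its receptors with Bmp2, had the opposite pattern of calls. The values were 7.54, 7.84 and 9.18 CPM for siNeg, 4.27, 5.24 and 6.27 CPM for siNeg PE, 7.85, 7.52 and 10.3 CPM for siSlc39a2 and 5.37, 5.69 and 7.56 CPM for siSlc39a2 PE. PE samples were the lower ones in either background, and in siSlc39a2 cells the highest PE sample overlapped the lowest untreated one. Bmp4 fell with PE by 0.64 on the log2 scale in siNeg cells (standard error 0.18, adjusted p = 0.0111). In siSlc39a2 cells it fell by 0.46 (standard error 0.18, adjusted p = 0.0392), a call that was lost when any of 4 samples was left out (siSlc39a2 PE replicate 1, adjusted p = 0.0961, siSlc39a2 PE replicate 2, 0.121, siSlc39a2 replicate 1, 0.0507, and siSlc39a2 replicate 3, 0.128) and when the 2 groups were fitted alone (0.0551). With the knockdown its log2 fold changes were 0.06 (standard error 0.17, adjusted p = 0.798) without PE and 0.24 (standard error 0.18, adjusted p = 0.278) with PE.

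The FPKM ratio of Bmp2 to Bmp4, chosen after the values were seen and given without a test, was between 0.249 and 0.280 for siNeg, 0.321 and 0.543 for siNeg PE, 0.696 and 1.14 for siSlc39a2 and 1.17 and 1.74 for siSlc39a2 PE. The ranges of the 4 groups did not overlap in FPKM, whereas in CPM those of siNeg and siNeg PE did. Mean Bmp2 was 1.26 FPKM for siNeg and 1.40 FPKM for siNeg PE, but 3.74 and 3.37 in CPM. The separation of these 2 groups therefore depends on the measure. Bmp2 transcripts were thus the minor share of the pair in the siNeg groups and the major one in siSlc39a2 PE.

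**Figure D3:**
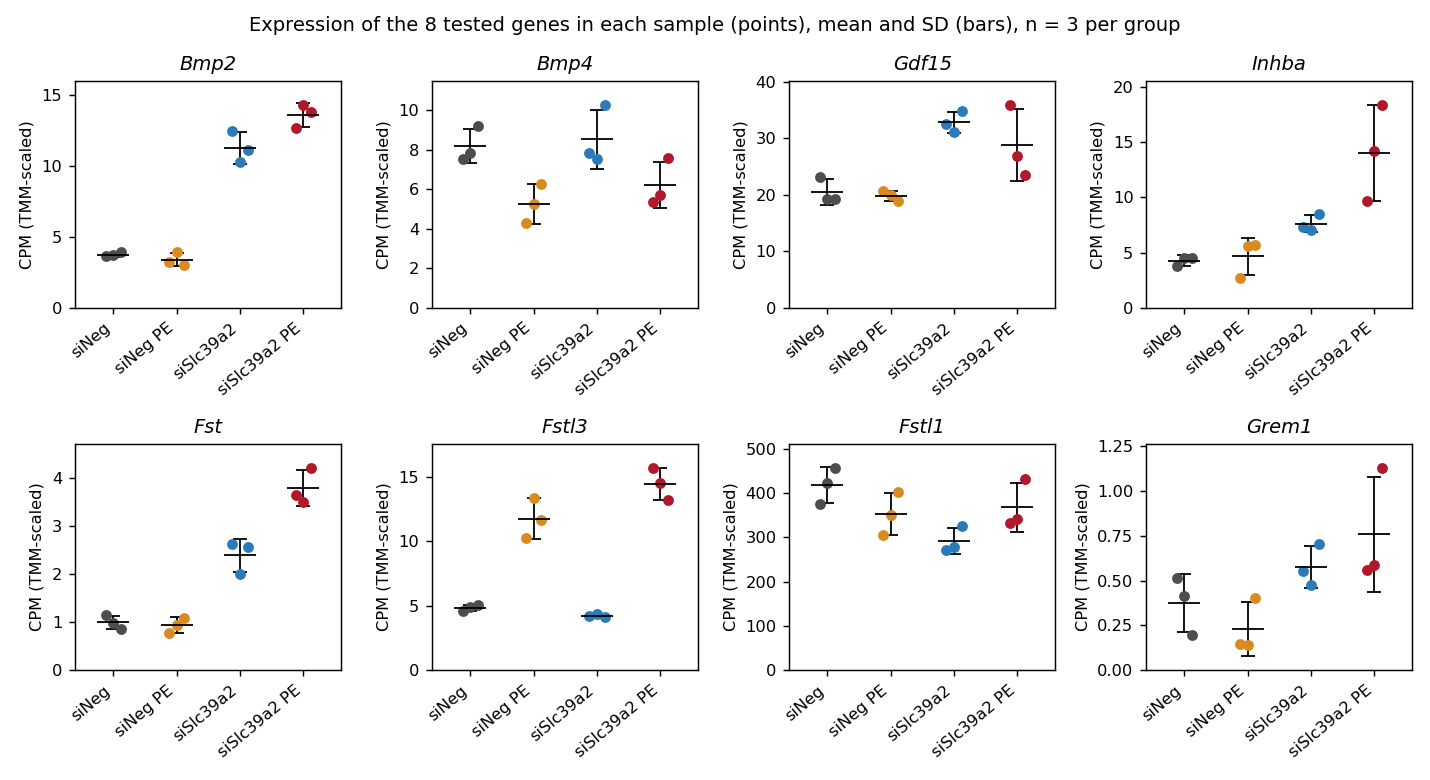
CPM of the 8 tested genes in each of the 12 samples (points, linear axes from 0), with the mean and SD of each group (n = 3). Bmp2, Fst and Gdf15 are separated by siRNA in all samples, Fstl3 is separated by PE, and Inhba spreads between 9.66 and 18.4 CPM for siSlc39a2 PE.

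Of the other ligands, Inhba, whose product forms activin A as a homodimer, rose in siSlc39a2 cells and was highest in siSlc39a2 PE. It had 3.75, 4.55 and 4.53 CPM for siNeg, 2.73, 5.56 and 5.72 CPM for siNeg PE, 7.33, 7.04 and 8.50 CPM for siSlc39a2 and 9.66, 14.2 and 18.4 CPM for siSlc39a2 PE. All siSlc39a2 samples were above all siNeg samples, and all siSlc39a2 PE samples were above the untreated siSlc39a2 samples. The knockdown raised Inhba by 1.59 on the log2 scale with PE (standard error 0.26, adjusted p = 2.20e-04), a 3.01-fold difference. Without PE it raised Inhba by 0.83 (standard error 0.27, adjusted p = 0.020). This call was lost without siNeg replicate 1 (adjusted p = 0.0660), without siSlc39a2 replicate 3 (0.0540) and in limma on log2(FPKM + 1) (0.0557) or log2(FPKM + 0.1) (0.0615). PE raised Inhba in siSlc39a2 cells (log2 fold change 0.89, standard error 0.25, adjusted p = 0.00848), and the value in siNeg cells was 0.13 (standard error 0.27, adjusted p = 0.716). Without siSlc39a2 PE replicate 1, the lowest of its group, the PE response in siSlc39a2 cells was 1.07 and past the threshold.

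Gdf15 rose with the knockdown in both conditions and passed neither test for PE. Its CPM were 23.2, 19.2 and 19.2 for siNeg, 20.7, 20.0 and 18.9 for siNeg PE, 32.6, 31.2 and 34.8 for siSlc39a2, and 35.9, 26.8 and 23.6 for siSlc39a2 PE. The siSlc39a2 samples were above their siNeg counterparts without overlap, although siSlc39a2 PE replicate 3 lay close to siNeg replicate 1. The log2 fold change of the knockdown was 0.68 (standard error 0.13, adjusted p = 0.00104) without PE and 0.53 (standard error 0.13, adjusted p = 0.00422) with PE. For PE it was -0.05 (standard error 0.13, adjusted p = 0.780) in siNeg cells and -0.19 (standard error 0.13, adjusted p = 0.218) in siSlc39a2 cells. Without siSlc39a2 PE replicate 1, the last of these was -0.40 with an adjusted p of 0.00456. The deposited counts of Gdf15 were not whole numbers, which arises where reads are divided among genes, and its values are uncertain to that extent.

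The bases before the annotated starts of Inhba, which rose with the knockdown, of Gdf15, which did so more weakly, and of Fstl3, which rose with PE, are shown because each of the 3 holds the TATA box letters TATAAA. They are RefSeq windows of the GRCr8 build, 250 bases before the start, read 5′ to 3′ on the strand of the gene. The window is chr17:53804509-53804758 (minus strand) for Inhba, chr16:18839015-18839264 (plus strand) for the second listed start of Gdf15, and chr7:10579845-10580094 (minus strand) for Fstl3. Capitals mark matches, on either strand, to any of the 7 motifs searched.
Inhba: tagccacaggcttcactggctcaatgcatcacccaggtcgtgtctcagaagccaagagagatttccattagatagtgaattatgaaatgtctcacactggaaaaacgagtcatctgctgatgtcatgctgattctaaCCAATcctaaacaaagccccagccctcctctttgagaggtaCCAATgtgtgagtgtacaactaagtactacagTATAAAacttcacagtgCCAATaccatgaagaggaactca
Gdf15: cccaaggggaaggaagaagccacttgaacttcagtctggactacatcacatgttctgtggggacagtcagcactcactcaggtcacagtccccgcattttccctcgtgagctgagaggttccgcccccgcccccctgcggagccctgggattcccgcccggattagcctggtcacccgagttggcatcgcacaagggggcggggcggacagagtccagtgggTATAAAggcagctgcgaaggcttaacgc
Fstl3: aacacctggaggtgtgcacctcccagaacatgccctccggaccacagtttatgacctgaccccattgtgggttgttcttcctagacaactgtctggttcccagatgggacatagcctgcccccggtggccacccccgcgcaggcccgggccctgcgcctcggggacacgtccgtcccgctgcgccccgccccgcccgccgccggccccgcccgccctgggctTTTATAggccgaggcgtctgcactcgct
Windows were found for 7 of the 10 genes, 8 windows in all, and for Bmp2, Fst and Mstn none was used. TATAAA was in 3 of the 8 windows and in 12.9% of all 33469 windows. Inhba had it between 40 and 35 bases before the start, Gdf15 between 28 and 23 bases before it, and Fstl3 between 28 and 23 bases before it in the reverse orientation. The CCAAT box letters occurred 3 times in the Inhba window, and in 4 of the 8 windows and 34.0% of all windows. GGCGCC, a letter pattern bound by BMP-activated SMADs, was in the Grem1 window and in 8.7% of all windows. CACGTG was in the Bmp4 window and in 5.6% of all. AGATAA was in the Bmp10 window and in 10.3% of all. TGANTCA (6.3% of all) and TGACGTCA (1.6% of all) were in none of the 8 windows. CCAAT and TATAAA matches did not overlap each other in these windows, and a match of letters is no evidence of binding.

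The binding proteins Fst and Fstl3 share activins and myostatin as partners. Fst was past the threshold in both knockdown comparisons and Fstl3 in both PE comparisons. Fst had 1.15, 0.985 and 0.867 CPM for siNeg and 0.774, 0.950 and 1.101 CPM for siNeg PE. It had 2.63, 2.0 and 2.57 CPM for siSlc39a2 and 3.65, 3.52 and 4.22 CPM for siSlc39a2 PE. The siNeg groups overlapped, and the siSlc39a2 groups were apart from them and from each other. Fst rose with the knockdown by 1.26 on the log2 scale without PE (standard error 0.20, adjusted p = 2.22e-04) and by 2.01 with PE (standard error 0.20, adjusted p = 3.23e-06). The response of Fst to PE was 0.66 (standard error 0.18, adjusted p = 0.00672) in siSlc39a2 cells and -0.08 (standard error 0.22, adjusted p = 0.772) in siNeg cells. These values rest on between 21 and 116 counts per sample.

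Fstl3 had 4.62, 4.89 and 5.08 CPM for siNeg and 10.2, 13.4 and 11.7 CPM for siNeg PE. It had 4.18, 4.40 and 4.13 CPM for siSlc39a2 and 15.7, 14.6 and 13.2 CPM for siSlc39a2 PE. Every PE sample was above every untreated one. Fstl3 was raised by PE 2.42-fold in siNeg cells (log2 fold change 1.27, standard error 0.12, adjusted p = 5.73e-06) and 3.41-fold in siSlc39a2 cells (1.77, standard error 0.12, adjusted p = 1.74e-07). For the knockdown the log2 fold change was -0.20 without PE (standard error 0.12, adjusted p = 0.204) and 0.30 with PE (standard error 0.11, adjusted p = 0.0336). The first passed the test in limma on FPKM, with adjusted p-values of 0.0375 and 0.0344 for the pseudocounts of 1 and 0.1. The second was lost without siNeg PE replicate 1 (adjusted p = 0.143), siNeg PE replicate 3 (0.0793), siSlc39a2 PE replicate 1 (0.122) or siSlc39a2 PE replicate 2 (0.0801), and also with no filter on low counts (0.0522), in the fit of the 2 groups alone (0.0717) and in limma on log2(FPKM + 0.1) (0.0580) or log2(count + 1) (0.160).

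Together, the FPKM of Fst and Fstl3 summed to between 6.72 and 7.66 for siNeg, 15.2 and 20.6 for siNeg PE, 7.57 and 7.70 for siSlc39a2 and 21.8 and 24.8 for siSlc39a2 PE. Fst made up 6.31% ± 0.952 (SD, n = 3) of this sum in siNeg, 2.42% ± 0.403 for siNeg PE, 15.0% ± 1.71 for siSlc39a2 and 7.88% ± 1.16 for siSlc39a2 PE. Set against this sum, Inhba stood at a ratio between 0.0804 and 0.126 for siNeg, 0.0283 and 0.0524 for siNeg PE, 0.153 and 0.191 for siSlc39a2 and 0.0634 and 0.137 for siSlc39a2 PE. The ratio was lowest in siNeg PE and highest in untreated siSlc39a2, with overlap between siNeg and siSlc39a2 PE. These ratios were chosen after the values were seen and carry no test.

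**Figure D4:**
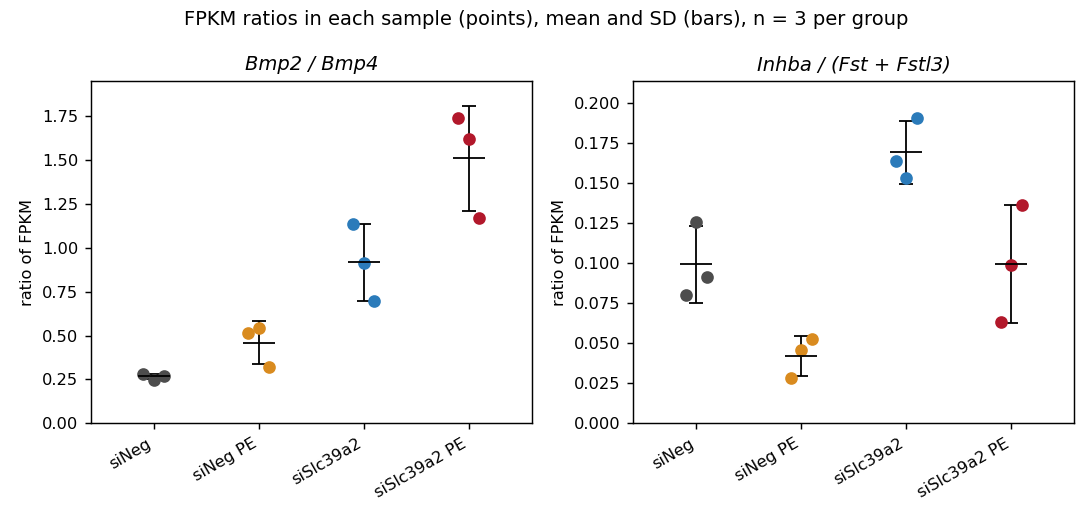
Ratios of FPKM in each sample (points) with the mean and SD of each group (n = 3), for Bmp2 over Bmp4 (left) and for Inhba over the sum of Fst and Fstl3 (right). Bmp2 over Bmp4 is between 0.249 and 0.280 for siNeg and between 1.17 and 1.74 for siSlc39a2 PE, and Inhba over its binding proteins is lowest in siNeg PE (0.0283 to 0.0524).

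Fstl1 was lower in untreated siSlc39a2 cells and was not called lower in the other comparisons. Its CPM were 376, 423 and 457 for siNeg, 306, 351 and 402 for siNeg PE, 272, 278 and 327 for siSlc39a2 and 333, 341 and 431 for siSlc39a2 PE. The siNeg and siSlc39a2 samples did not overlap, and those with PE did. The knockdown lowered Fstl1 without PE, where it fell by 0.52 on the log2 scale (standard error 0.12, adjusted p = 0.00360), and the value with PE was 0.06 (standard error 0.12, adjusted p = 0.690). In limma on log2(count + 1) the first had an adjusted p of 0.0538. PE gave -0.25 (standard error 0.12, adjusted p = 0.110) in siNeg cells and 0.33 (standard error 0.12, adjusted p = 0.0308) in siSlc39a2 cells. The last call was lost without siSlc39a2 PE replicate 3 (adjusted p = 0.155), siSlc39a2 replicate 1 (0.109) or siSlc39a2 replicate 2 (0.0982) and in all 3 limma fits (0.0635 to 0.107). Fstl1 is expressed by fibroblasts as well as by cardiomyocytes. Of the 12 fibroblast markers, all tested, 9 were lower and 1 was higher by adjusted p with the knockdown without PE, 6 of them past the threshold lower, and 9 and 1 with PE, again 6 past the threshold. Of all genes tested, 26.4% were lower and 22.8% higher by adjusted p without PE, and 28.1% and 29.2% with PE. Past the threshold lower were 5.21% and 5.58%. Smooth muscle and pericyte markers, 8 genes, summed to between 2290 and 2356 CPM (siNeg), 1523 and 1928 CPM (siNeg PE), 939 and 984 CPM (siSlc39a2) and 1598 and 1693 CPM (siSlc39a2 PE). By adjusted p, 7 of the 8 were lower and 0 higher with the knockdown without PE, and 1 was lower and 2 were higher with PE. The part of these marker differences in the values of Fstl1, Bmp4 and Grem1 was not tested.

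Grem1 was close to the limit of detection, with between 4 and 31 counts per sample. It had 0.513, 0.417 and 0.197 CPM for siNeg, 0.147, 0.141 and 0.404 CPM for siNeg PE, 0.553, 0.474 and 0.702 CPM for siSlc39a2, and 0.559, 0.586 and 1.13 CPM for siSlc39a2 PE. All samples of siNeg PE were below all samples of both siSlc39a2 groups, and those of siNeg were below those of siSlc39a2 PE, while the other pairs of groups overlapped. With PE, the knockdown raised Grem1 by 1.70 on the log2 scale (standard error 0.47, adjusted p = 0.00757), between 1.30 and 2.36 when a sample was left out. The remaining log2 fold changes were 0.60 (standard error 0.45, adjusted p = 0.290) for the knockdown without PE, -0.70 (standard error 0.52, adjusted p = 0.276) for PE in siNeg cells and 0.40 (standard error 0.41, adjusted p = 0.418) for PE in siSlc39a2 cells.

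Whether the knockdown effect differed with and without PE was tested by the interaction, the knockdown effect with PE less that without. By adjusted p, 0 of the 8 genes passed this test with edgeR, against 3.61% of all genes tested, and 0 were past the threshold, against 0.988%. Of the 13967 genes tested, 2235 had an unadjusted p under 0.05 in either direction. Among the 8 genes there were 4, all higher. Their interactions were 0.41 (standard error 0.17, adjusted p = 0.257) for Bmp2, 0.75 (standard error 0.28, adjusted p = 0.205) for Fst, 0.58 (standard error 0.17, adjusted p = 0.0929) for Fstl1 and 0.50 (standard error 0.17, adjusted p = 0.140) for Fstl3. DESeq2 called 1 gene (Fstl1, adjusted p = 0.0339), and limma on FPKM called another (Fst, adjusted p = 0.0125 and 0.0158 for the pseudocounts of 1 and 0.1). For Inhba the interaction was 0.76 (standard error 0.37, adjusted p = 0.345). Thus in edgeR the larger knockdown effects of Bmp2, Inhba and Fst with PE were not shown to differ from those without PE. For Fst and Fstl1 the call depended on the fit, as limma on FPKM gave a difference for Fst and DESeq2 for Fstl1. The edgeR fit with a replicate block is given in the last section.

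Genes with the most similar pattern were sought among 9500 tested genes with whole counts, as those with the smallest root mean square difference of centred log2 CPM over the 12 samples. Those nearest to Bmp2 were Trim25 (0.205) and Cd47 (0.216), where the pattern of Bmp2 itself had a root mean square of 0.903. Inhba was nearest to Lpar6 (0.225) and F2r (0.225), and Fst to Mapt (0.175) and F2r (0.227), against 0.747 and 0.835 of their own. The nearest to Fstl3 were Slco3a1 (0.118) and Lrp8 (0.168), against 0.769. Grem1 had more distant neighbours, Zfp606 (0.349) and Trim6 (0.387), against 0.715.

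The remaining genes of the pathway were taken from fixed lists. Of 24 other ligands 10 were tested, and by adjusted p 0 rose and 5 fell with the knockdown without PE, 3 rose and 5 fell with the knockdown with PE, 3 rose and 5 fell with PE in siNeg cells, and 3 rose and 5 fell with PE in siSlc39a2 cells. Of all genes tested, in the same order, 22.8% rose and 26.4% fell, 29.2% rose and 28.1% fell, 24.0% rose and 25.7% fell, and 30.7% rose and 29.3% fell. The share of ligands that fell was thus above that of all genes in each comparison, and the share that rose was near it or below it. For the first of these, 0 ligands were higher at an unadjusted p under 0.05 too. Inha, the inhibin subunit that pairs with the Inhba product to form an activin antagonist, rose with PE from 18.8 ± 0.590 to 119 ± 5.82 CPM (SD, n = 3) in siNeg cells (log2 fold change 2.67, standard error 0.08, adjusted p = 4.37e-10). In siSlc39a2 cells it rose from 12.3 ± 0.855 to 81.9 ± 5.56 CPM (2.74, standard error 0.08, adjusted p = 1.72e-10). Inhbb, the other activin beta subunit, was past the threshold lower with PE in siNeg cells (-1.56) and with the knockdown without PE (-1.57), and Gdf10 was so in the same comparisons (-1.34 and -1.74) and with the knockdown under PE (-1.03). Bmp7 was past the threshold higher with PE in siSlc39a2 cells (1.11) and passed the test higher in siNeg cells (0.84, adjusted p = 3.19e-06). With the knockdown under PE, where Inhba rose most, Inhbb had a log2 fold change of -0.52 (adjusted p = 0.0479).

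Among the other antagonists and extracellular modulators, falls outnumbered rises. Of 23 listed, 11 were tested, and by adjusted p 0 rose and 6 fell with the knockdown without PE, 1 rose and 6 fell with it under PE, 1 rose and 5 fell with PE in siNeg cells and 1 rose and 4 fell with PE in siSlc39a2 cells. The falls took a larger share than among all genes in each comparison, and the rises a smaller one. The rises, named after their values were seen, were Bmper with PE (log2 fold change 0.66, adjusted p = 0.00803 in siNeg cells and 0.61, adjusted p = 0.0125 in siSlc39a2 cells) and Wfikkn2 with the knockdown under PE (0.86, adjusted p = 0.00650). Chordin (Chrd), a BMP antagonist, fell with the knockdown from 8.78 ± 0.522 to 2.16 ± 0.464 CPM (SD, n = 3) without PE (log2 fold change -2.02, standard error 0.20, adjusted p = 4.03e-06) and by 1.71 on the log2 scale with PE. Kcp, a chordin-like modulator of BMP signalling, fell in both as well (-1.57 and -1.25). Smoc2, a matricellular protein, fell with PE (-2.33 in siNeg cells and -2.60 in siSlc39a2 cells). Its relative Smoc1 fell with PE as well, past the threshold in siNeg cells (-1.08) and by adjusted p alone in siSlc39a2 cells (-0.97, adjusted p = 2.24e-04). Of 6 convertases and proteases 5 were tested. Pcsk6, a convertase of ligand precursors, was past the threshold lower with the knockdown without PE (-1.08). With PE it passed the test lower (-0.45, adjusted p = 1.05e-04). Pcsk5 was past the threshold lower with the knockdown under PE (-1.20) and passed the test lower without PE (-0.87, adjusted p = 6.05e-05). By adjusted p 0 rose and 3 fell in either knockdown comparison (0 rose at an unadjusted p under 0.05), while 26.4% (without PE) and 28.1% (with PE) of all genes fell.

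Of 17 receptors and coreceptors listed, 14 were tested, and 3 rose and 4 fell by adjusted p in each knockdown comparison, 3 rose and 5 fell with PE in siNeg cells and 3 rose and 6 fell with PE in siSlc39a2 cells. With the knockdown these shares were near or below those of all genes (22.8% rose and 26.4% fell without PE, 29.2% and 28.1% with PE), and with PE the falls were above them (25.7% in siNeg and 29.3% in siSlc39a2 cells). The type I receptor Bmpr1a was past the threshold higher with PE in siSlc39a2 cells (log2 fold change 1.05, standard error 0.14, adjusted p = 5.10e-05). Its mean in siNeg cells was 58.3 CPM without PE and 83.8 CPM with PE, and in siSlc39a2 cells 79.3 and 164 CPM. Its mean was thus higher with the knockdown in either condition as well. Eng, a coreceptor, had a log2 fold change of -1.01 with the knockdown without PE. With PE its mean was 197 CPM for siNeg PE and 102 CPM for siSlc39a2 PE. The counts of Eng were not whole, so that these values are uncertain. The BMP coreceptors Rgma and Hjv were past the threshold lower with PE in siSlc39a2 cells (-1.49 and -1.33), and their values in siNeg cells were -0.65 and -0.43. Rgma was past the threshold lower with the knockdown under PE (-1.17), where Hjv had -0.79. Of the 12 SMADs, SMAD corepressors and SMAD ubiquitin ligases, all tested, 6 rose and 2 fell by adjusted p with the knockdown in either condition, 2 rose and 3 fell with PE in siNeg cells, and 4 rose and 2 fell with PE in siSlc39a2 cells. Against the same shares of all genes, this list had more rises and fewer falls with the knockdown. Past the threshold was Skil, a repressor of SMAD-driven transcription, which rose with the knockdown under PE (1.31, standard error 0.21, adjusted p = 2.20e-04) and with PE in siSlc39a2 cells (1.29).

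Most of the tested targets of BMP-SMAD signalling rose with the knockdown. Of 13 listed genes 12 were tested, and by adjusted p 8 rose and 0 fell with the knockdown without PE (0 fell at an unadjusted p under 0.05), with 4 of them past the threshold, while 22.8% of all genes rose and 26.4% fell. With PE, 8 rose and 2 fell, again with 4 past the threshold higher, while 29.2% of all genes rose and 28.1% fell. The targets that fell there were Msx2 (-0.62) and Msx1 (-0.54), named after their values were seen. The median log2 fold changes of the list were 0.70 and 0.76, beside -0.02 and 0.01 for all genes. Bambi, Smad6, Smad7 and Smad9 stand in this list and in another of the lists above. PE gave 3 rises and 4 falls in siNeg cells and 4 rises and 6 falls in siSlc39a2 cells, against 24.0% and 25.7%, and 30.7% and 29.3%, of all genes. Id3, an inhibitor of differentiation that BMPs induce, had 13.3, 14.7 and 13.3 CPM for siNeg, 14.5, 16.5 and 18.4 CPM for siNeg PE, 39.2, 36.4 and 28.7 CPM for siSlc39a2 and 47.8, 43.6 and 41.0 CPM for siSlc39a2 PE. All siSlc39a2 samples were above all siNeg samples, as for Bmp2. Id3 rose by 1.34 (standard error 0.12, adjusted p = 1.71e-06) without PE and by 1.42 (standard error 0.12, adjusted p = 7.99e-07) with PE on the log2 scale. Its relative Id1 rose with the knockdown (1.29 and 1.19) and with PE (1.11 in siNeg and 1.00 in siSlc39a2 cells). Hamp, which encodes the iron hormone hepcidin, rose with the knockdown (2.02 and 1.51) and fell with PE in siSlc39a2 cells (-1.30), where Msx2 fell as well (-1.02).

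Of the 12 targets, Id4 alone passed the interaction test (edgeR). It had 1.42, 1.59 and 1.06 CPM for siNeg, 3.21, 3.38 and 3.19 CPM for siNeg PE, 10.4, 9.55 and 11.9 CPM for siSlc39a2 and 8.13, 7.55 and 8.22 CPM for siSlc39a2 PE. No group overlapped another. Id4 rose with the knockdown by 2.96 (standard error 0.15, adjusted p = 5.71e-09) without PE and by 1.29 (standard error 0.14, adjusted p = 6.47e-06) with PE on the log2 scale, and the interaction was -1.67 (standard error 0.20, adjusted p = 6.24e-04). The Id genes are also induced by signals other than BMPs, and which signal moved them was not tested.

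**Figure D5:**
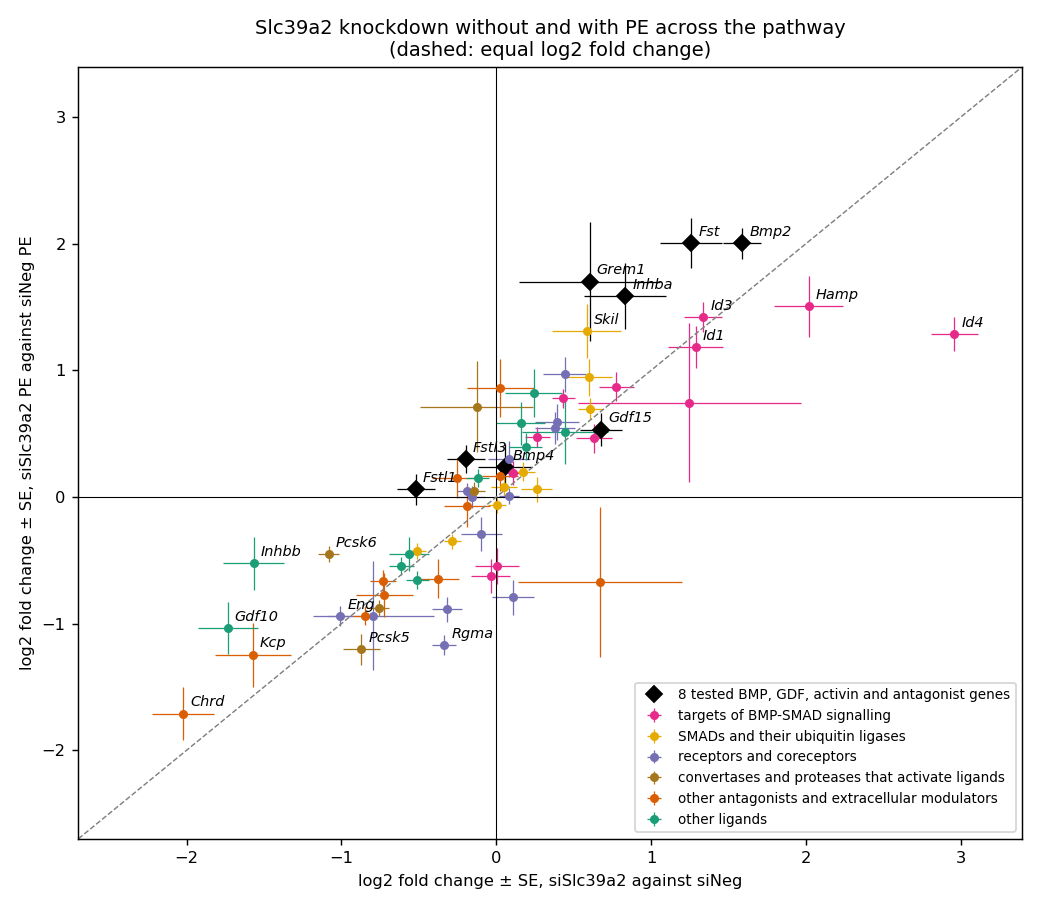
Log2 fold changes of the knockdown without PE (x axis) and with PE (y axis) for the 8 tested genes (black diamonds) and the other tested genes of the pathway lists (circles, with a gene of several lists drawn as a BMP-SMAD target). Error bars are standard errors and the dashed line marks equal values; Bmp2 (1.59 and 2.0) and Fst (1.26 and 2.01) lie above it and Id4 (2.96 and 1.29) below it.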

How the data were processed

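RNA-seq of 12 NRVM samples was analysed from processed values. The authors deposited expected counts for each gene with no scaling applied, where multi-mapping reads were divided among genes (78.7% of values were whole), and FPKM values for the same 18483 genes. Per the labels, HISAT, Bowtie2 and the build Rnor_6.0 were used, and their versions, settings and the annotation are not given in the sources used here.

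Expected counts were rounded, filtered by filterByExpr (4516 genes left out, 13967 kept), scaled by TMM and fitted together for all 4 groups (8 residual degrees of freedom) in edgeR 4.0.16 (R 4.3.3). The depth of 24065539 to 28603854 counts puts the detection limit of 3 counts at 0.102 to 0.118 CPM, for counting error only. No sample was a copy of another of its group (chi-square over degrees of freedom from 4.67 to 33.8).

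Results were recomputed with DESeq2 1.42.0, RLE size factors, no filter, the compared groups alone, a replicate block, limma 3.58.1 on quantile-normalized log2(FPKM + 1), log2(FPKM + 0.1) and log2(count + 1), and leaving out each sample. Limma on FPKM kept genes with a mean of at least 0.5.

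The 10 genes, the lists and the tests were chosen with earlier results of these data known. Outside the 10 genes, the genes named are, per list and comparison, at most 3 past the threshold with the largest changes, and the 2 genes most similar to each of the 10 that was past the threshold; Tgfbr3, Bmper, Wfikkn2 and Msx1 were named after their values were seen. The labels do not say what same-numbered samples share, and they were fitted as unpaired. Promoter windows come from RefSeq (GRCr8), a later build than that of the files, and carry no measurement.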

Additional observations from a re-analysis of the deposited data

Results flagged for a closer look

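By edgeR, 0 of the 8 tested genes had an adjusted p below 0.05 in the interaction, 4 had an unadjusted p under 0.05, and DESeq2 called 1. Of all 13967 genes tested in edgeR, 504 had such an adjusted p and 2235 such an unadjusted p. Of the other named pathway genes, 4 had an adjusted p below 0.05, so that their knockdown effect differed with and without PE (edgeR). The named genes had been picked for large changes between the same groups. Their number is therefore not comparable with that of all genes. For Id4, a target of BMP-SMAD signalling, the interaction was -1.67 (standard error 0.20, adjusted p = 6.24e-04). For the coreceptor Rgma it was -0.83 (standard error 0.11, adjusted p = 0.00104), with 356 ± 7.98 CPM (SD, n = 3) for siNeg, 226 ± 17.8 for siNeg PE, 282 ± 24.5 for siSlc39a2 and 100 ± 5.82 for siSlc39a2 PE. Its relative Hjv had -0.90 (standard error 0.19, adjusted p = 0.0212), a call lost when any of 5 samples was left out (adjusted p between 0.0513 and 0.0669). For the convertase Pcsk6 it was 0.63 (standard error 0.10, adjusted p = 0.00277), with 62.7 ± 4.43 CPM for siNeg, 78.0 ± 3.06 for siNeg PE, 29.6 ± 0.968 for siSlc39a2 and 57.1 ± 0.772 for siSlc39a2 PE. The coreceptor Tgfbr3, named after its values were seen, had -0.57 (standard error 0.14, adjusted p = 0.0413).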

How the results depend on the processing

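The numbers of genes past the threshold held under most alternatives. For the knockdown without PE, 1 gene in place of 2 was past it in limma on log2(FPKM + 1) and on log2(FPKM + 0.1). For the knockdown with PE, 1 in place of 4 was past it on log2(FPKM + 1) and 3 in place of 4 on log2(FPKM + 0.1). Grem1 was below the FPKM minimum in both of these fits. The number called by adjusted p for the knockdown with PE was between 4 and 6 across the alternatives, against 6 in the main fit. By adjusted p, the interaction called 1 gene with DESeq2, with the replicate block, and in limma on log2(FPKM + 1) and log2(FPKM + 0.1). With single samples left out, PE in siSlc39a2 cells gave between 1 and 2 genes past the threshold.

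Some values that passed no test changed sign. Gdf15 with PE in siNeg cells was 0.0312 in limma on log2(FPKM + 1) and 0.0324 on log2(FPKM + 0.1), and between -0.0932 and 0.0475 when a sample was left out. Inhba with PE in siNeg cells was -0.0794, -0.184 and, on log2(count + 1), -0.0555, and between -0.0409 and 0.399 when a sample was left out. Bmp4 with the knockdown without PE was -0.0431, -0.0509 and -0.0616 in the same fits, and between -0.0424 and 0.149 when a sample was left out. Fstl1 with the knockdown under PE was -0.0131 on log2(FPKM + 1) and -0.0132 on log2(FPKM + 0.1), and between -0.0679 and 0.163 when a sample was left out. Fst with PE in siNeg cells was between -0.208 and 0.0370 when a sample was left out.

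The replicate numbers were not used to pair the samples in the main fit. The correlation of deviations of same-numbered samples was between -0.09 and 0.32, and in no comparison did every sample correlate best with its own number. Pairs with different numbers averaged between -0.09 and -0.003 per comparison. Whether same-numbered samples share a cell isolation cannot be told from the labels. With the replicate block as a term, Fstl1 passed the test for PE in siNeg cells (adjusted p = 0.00157) and for the interaction (7.78e-04), and the number of the 10 genes at an adjusted p below 0.05 was 3 in place of 2 for PE in siNeg cells and 1 in place of 0 for the interaction. Of the other named pathway genes, Inhbb (adjusted p = 0.0402), Bmpr1a (0.0223) and Skil (0.0424) passed the interaction test with the block and not without it. Across all genes, 1053 in place of 504 passed the interaction test with it. Depth limits Grem1, Fst, Bmp10 and Mstn most.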
